A study of Homo sapiens with 108 samples.

Results

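The mRNAs of 10 eIF4 translation initiation factors were followed in HEK293T cells, a human embryonic kidney line, given hairpins to 8 zinc-finger genes. Of the 8 targeted mRNAs, 4 were called lower in their own arm, as given below. The genes, EIF4A1, EIF4A2, EIF4A3, EIF4B, EIF4E, EIF4E2, EIF4G1, EIF4G2, EIF4G3 and EIF4H, were chosen by family name with earlier level and label values of these same libraries in view. They are 10 of 19761 genes counted, so the level calls below describe them and are read against the share of all genes called. Cells received lentiviral hairpins and were selected with puromycin, with a hairpin to ZMAT3, ZMAT5, ZNF706, MAZ, PHF7, CNOT4, ZFP36L1 or BRCA1, or a non-targeting hairpin (NT). All cells took up the nucleoside 4-thiouridine (4SU, 10 µM) for 24 h before the medium was changed to 1 mM uridine, a chase of 0, 2, 4 or 8 h, and 3 biological replicates were sequenced per hairpin and chase time, giving 12 libraries per arm and 108 in all. How many hairpins each gene had, and how many transduced cultures lay behind the replicates, is not given in the labels.

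Cap-dependent initiation rests on the eIF4F complex. EIF4E binds the mRNA cap, EIF4G1 or EIF4G3 is the scaffold that bridges the cap to the small ribosomal subunit, and EIF4A1 or EIF4A2 is the RNA helicase that unwinds the 5′ leader, stimulated by EIF4B and EIF4H. EIF4G2 (also DAP5) resembles the EIF4G scaffold but lacks the EIF4E-binding part, EIF4E2 (also 4EHP) binds the cap and is best known as a repressor of translation, and EIF4A3 is a related helicase at the core of the exon junction complex, which is deposited on spliced mRNA.

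The library kit reads 3′ ends, and over all libraries most reads of each gene lay in 1 counted stretch. The last 30 bases of the stretches on which the results turn are given here, 5′ to 3′ on the mRNA strand as read from the hg38 genome, with the poly(A) signal AATAAA or its variant ATTAAA in capitals.
EIF4A1: aaattctgAATAAAatgacttggaaactgc
EIF4A2: ttaAATAAAttgtatattcactttaaaggt
EIF4G1: aattATTAAAcatgaattcaattaagctca
EIF4G2: tctatcAATAAAcattgtgatacttgatgt
EIF4E: aatcatccAATAAAgctgtattcactctgt
EIF4E2 near end: tgagatcacttAATAAAtggtgctaaacta
EIF4E2 far end: gcagtAATAAAttgaaaatatcagcaagaa
EIF4A1 ends at chr17:7578976-7579005 (plus strand), EIF4A2 at chr3:186789871-186789900 (plus), EIF4G1 at chr3:184335329-184335358 (plus), EIF4G2 at chr11:10797051-10797080 (minus) and EIF4E at chr4:98871685-98871714 (minus). EIF4E2 had reads at both chr2:232569181-232569210 and chr2:232583615-232583644 (plus). In the last 30 bases of its most-read stretch, on the mRNA strand, AATAAA stood in 7 of the 10 genes, ATTAAA alone in 1 (EIF4G1) and neither in 2 (EIF4A3 and EIF4G3). Over the most-read stretch of 17858 genes the shares were 53.1%, 12.8% and 34.2%, in the same order. These are matches of letters, not tested sites.

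Levels are counts per library total (CPM), scaled by the trimmed mean of M values over all 108 libraries and called normalised CPM below. A level was called changed where edgeR's quasi-likelihood test, with 12 libraries against 12 NT libraries and chase time as a factor, gave an adjusted p under 0.05 and a fold over 1.2. Library totals ran between 63659 and 30750027 reads (median 14870063), with NT between 8206060 and 13359455. BRCA1 libraries had 4577042 to 12670376 reads and 10102 to 11710 genes detected, against 11137 to 11825 genes in NT. Every MAZ (12777 to 13627), ZMAT3 (13185 to 13828) and ZMAT5 library (12249 to 12624) detected more genes than any NT library. ZNF706 libraries detected 11609 to 12733 and PHF7 libraries 3279 to 13975. Whether level differences from the shared NT follow these differences was not tested. PHF7 replicate 3 at 8 h was the shallowest and held 0 reads of EIF4A2, EIF4E2, EIF4G3 and EIF4H. Of the targeted mRNAs, MAZ, ZMAT3, ZMAT5 and ZNF706 were called lower in their own arm, at 12.2%, 24.8%, 10.5% and 50.5% of NT. BRCA1 mRNA was at 53.8% and PHF7 mRNA at 29.3% of NT without passing the test (adjusted p = 0.211 and 0.344, edgeR). CNOT4 mRNA was at 100.5% of NT (adjusted p = 0.954), and ZFP36L1 mRNA was higher, at 171.8% of NT (adjusted p = 0.00194), against its label, so that arm is called the libraries labelled ZFP36L1. Both of these arms stood apart from NT in every library: they covered 27.7 to 34.0 (CNOT4) and 25.9 to 33.0 (libraries labelled ZFP36L1) T positions per read, against 37.1 to 37.8 in NT, so a difference between either arm and NT cannot be told apart from whatever else separates these libraries. Within CNOT4, the 3 libraries at 8 h carry another wording in their file headers (pulse-chase) and had 5.82 to 5.91% of multimapped reads, against 9.34 to 11.9% at 0 to 4 h. They are part of the 12-library values below, and over 0 to 4 h alone 6 factors were called in CNOT4 cells in place of 7, EIF4G3 being lost (edgeR, adjusted p = 0.0795). HEK293T markers were present (VIM, the intermediate filament vimentin, had a median of 789 normalised CPM and CDH2, N-cadherin, 82.8), the epithelial EPCAM was near background at 2.16, and HBB, the haemoglobin beta chain of red cells, was at 0 in all 108 libraries. The labelled cell type's other listed markers had medians of 50.4 (NEFL), 38.6 (NEFM), 33.0 (KRT18) and 6.79 (KRT8) normalised CPM. The summed level of 10 markers of other cell types had medians of 13.7 to 22.6 normalised CPM across the arms, with 17.0 in NT. Most of this sum was COL1A1, with a median of 14.9 normalised CPM over all libraries (0 to 154) and 17.0 in NT. That is above KRT8 and EPCAM. ACTA2 had a median of 0.610 and the rest of these markers medians of 0.

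Across the 8 arms 33 of 80 gene and arm pairs were called, with EIF4A1 lower in 7 arms, EIF4G1 lower in 5, EIF4G2 lower in 4, and EIF4G3 and EIF4E2 in no arm lower. In CNOT4 cells 1 factor was called higher and 6 lower of 10, where 13.2% of 13308 genes were called higher and 13.2% lower. In the libraries labelled ZFP36L1 the counts were 1 higher and 5 lower, beside 21.7% and 18.2% of 13253 genes. In MAZ cells 1 was higher and 2 lower (5.23% and 3.56% of 13398 genes). In PHF7 cells 0 were higher and 3 lower (3.96% and 4.5% of 13324 genes), or 4 lower without the shallow library. In ZMAT3 cells 1 was higher and 4 lower (5.54% and 4.76% of 13307 genes). In ZMAT5 cells 1 was higher and 3 lower (5.41% and 4.24% of 13149 genes). In ZNF706 cells 1 was higher and 4 lower (2.91% and 2.32% of 13072 genes). In BRCA1 cells edgeR called 0 of 10 factors, with 3 at an unadjusted p under 0.05 and 0 called by DESeq2, beside 0.0471% and 0.0393% of 12735 genes. Over all genes the median log2 difference lay between −0.03 (BRCA1) and 0.15 (libraries labelled ZFP36L1), and scaling by library totals moved it by 0.12 in CNOT4 cells and by less than 0.1 elsewhere. The arms share the NT libraries, and these are bulk libraries, in which fewer cells with an mRNA and less of it per cell cannot be told apart.

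**Figure D1:**
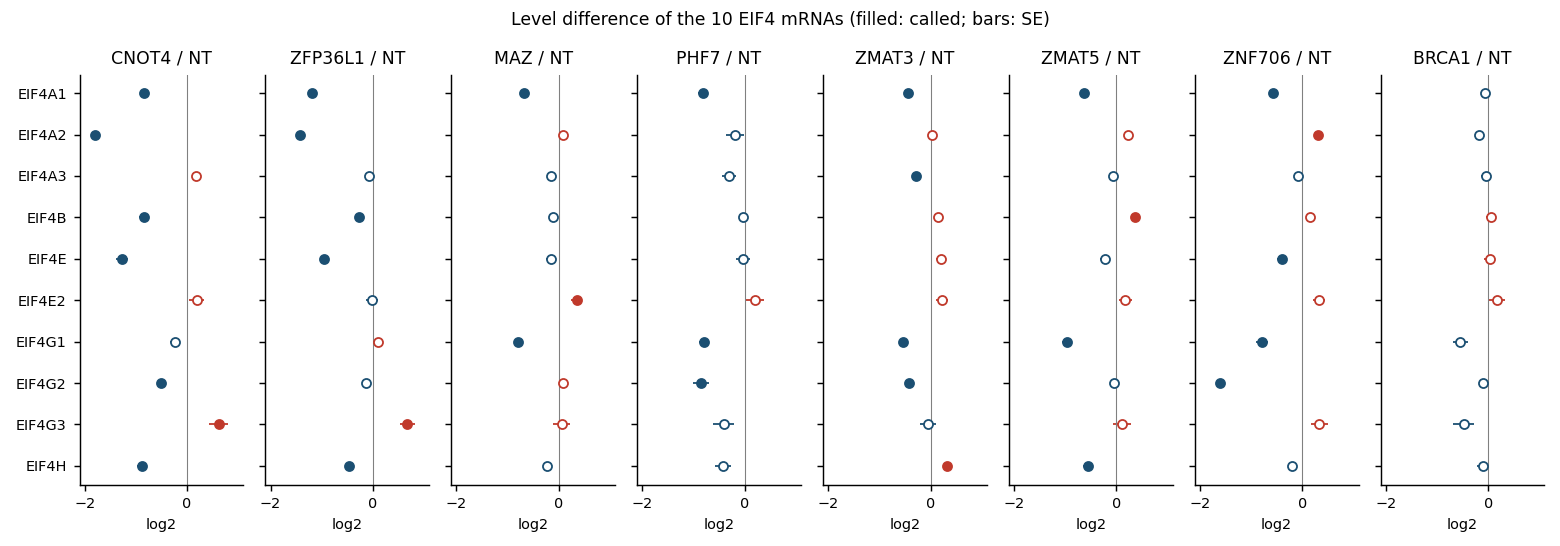
Log2 level difference of each factor, hairpin arm over NT, in the 8 arms (x axis, log2). Bars are SE of the edgeR fit, 12 libraries against 12. Filled points passed an adjusted p under 0.05 and a fold over 1.2; EIF4A1 is filled on the left in 7 panels, and EIF4G2 in ZNF706 cells lies at −1.61.

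EIF4A1, the major eIF4A helicase (chr17:7572824-7579006, hg38), was lower than in NT in every arm except BRCA1. In the libraries labelled ZFP36L1 its level was 631 to 894 normalised CPM (median 765), against 1482 to 1906 (median 1711) in NT. CNOT4 libraries lay between 799 and 1198 (median 969), and MAZ libraries between 899 and 1179 (median 1093). None of these 3 arms overlapped NT. PHF7 (352 to 1125, median 1039), ZMAT5 (973 to 1274, median 1100) and ZNF706 (975 to 1368, median 1160) did not overlap NT either. ZMAT3 libraries ran between 1092 and 1528 (median 1266), 11 of the 12 below every NT library. The log2 difference was −1.19 in the libraries labelled ZFP36L1 (adjusted p = 1.83e-19, edgeR), −0.84 in CNOT4 (1.23e-11), −0.81 in PHF7 (9.79e-07), −0.68 in MAZ (2.34e-12), −0.63 in ZMAT5 (7.23e-12), −0.56 in ZNF706 (3.11e-10) and −0.44 in ZMAT3 (2.35e-08). Without the shallow library the PHF7 difference was −0.73 (adjusted p = 5.55e-14). BRCA1 libraries ran between 1460 and 1906 (median 1674), over the same range as NT, with a log2 difference of −0.05 (adjusted p = 0.98).

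All 7 counted stretches of EIF4A1 share bases on the same strand with SENP3-EIF4A1, an annotated readthrough of SENP3 into EIF4A1. On the shared bases, reads of the 2 genes cannot be told apart. SENP3-EIF4A1 was called lower in the same 7 arms, by log2 differences between −1.36 and −0.53. The last stretch, chr17:7578343-7579005, which holds the end of the coding part and the 3′ UTR, carried 98.1% of the EIF4A1 reads. Of its 663 bases, 373 are shared with SENP3-EIF4A1. Over the 36 arm and chase time groups, the genes whose mean log2 level was most like that of EIF4A1 among 14961 genes were SENP3-EIF4A1 (Pearson r = 0.963), BSG (0.866) and AP2A1 (0.850). These correlations describe groups that share libraries, and the readthrough shares counted bases with EIF4A1.

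**Figure D2:**
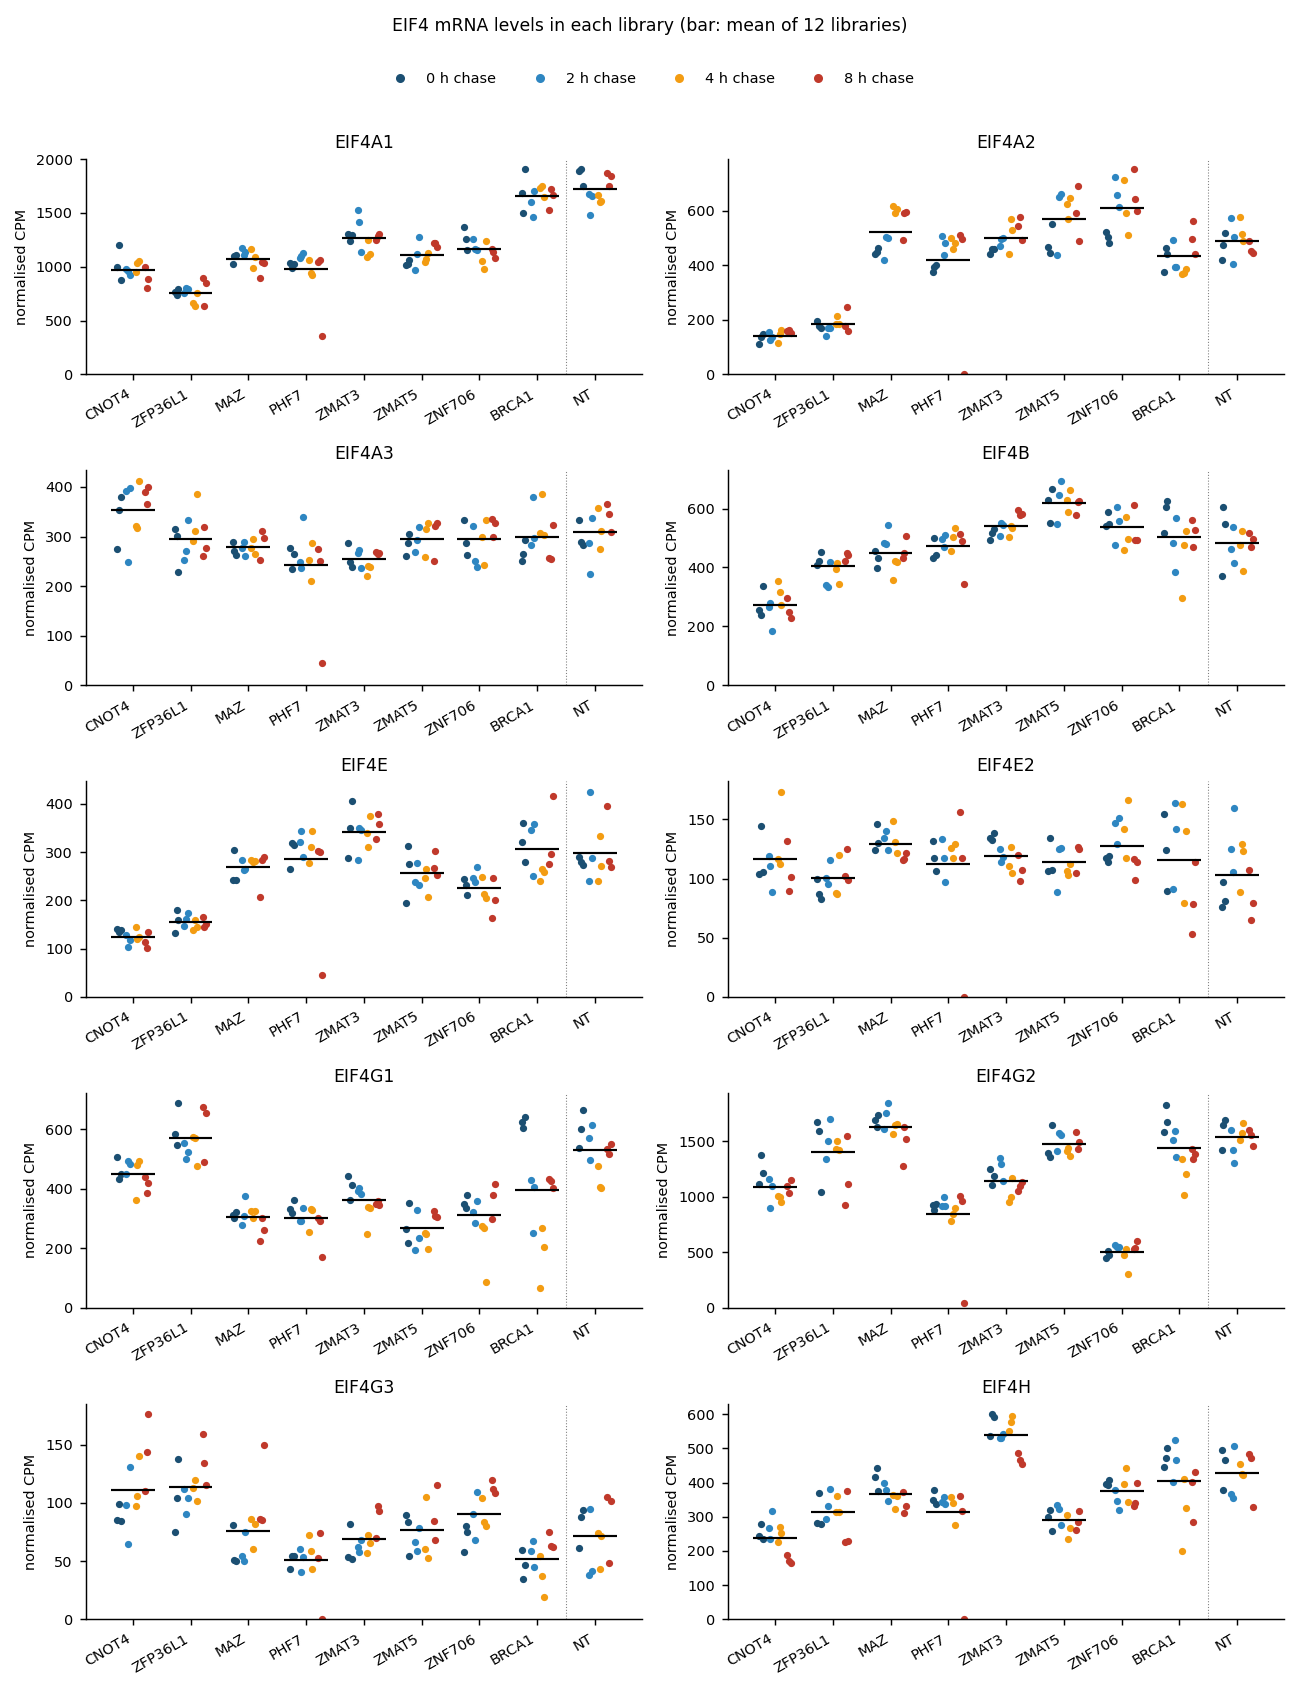
Normalised CPM (y axis) of each of the 10 factors in every library, by arm (x axis, NT at the right). Each point is 1 library, coloured by chase time, and the bar is the mean of 12; EIF4A1 is below every NT library in 6 arms, and EIF4G2 in ZNF706 cells lies between 307 and 604 against 1300 to 1690 in NT.

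EIF4A2, the second eIF4A helicase (chr3:186783205-186789897), was called lower in 2 arms and higher in 1. In CNOT4 libraries it was at 109 to 162 normalised CPM (median 148), against 403 to 578 (median 488) in NT, and in the libraries labelled ZFP36L1 at 142 to 246 (median 177). Neither arm overlapped NT, with log2 differences of −1.79 (adjusted p = 1.81e-16, edgeR) and −1.42 (2.05e-17). In ZNF706 cells EIF4A2 was called higher instead, at 480 to 752 (median 607), 8 of the 12 libraries above every NT library, with a log2 difference of 0.31 (adjusted p = 0.00571). That call was lost over 0 to 4 h alone (0.24, adjusted p = 0.127) and without replicate 1 or replicate 2 (adjusted p = 0.133 and 0.130). In the other arms EIF4A2 was not called. The ratio of EIF4A2 reads to EIF4A1 reads, a library's own measure that does not depend on its total, averaged 0.528 ± 0.101 in ZNF706, 0.510 ± 0.063 in ZMAT5, 0.490 ± 0.081 in MAZ and 0.148 ± 0.027 in CNOT4 libraries, against 0.285 ± 0.041 in NT (SD, n = 12 each). Every ZNF706, ZMAT5 and MAZ library lay above NT in this ratio and every CNOT4 library below it. The genes most like EIF4A2 over the 36 groups were APEX1 (r = 0.972), TSFM (0.971) and NCBP2 (0.963). The most-read stretch of EIF4A2, which carried 99.1% of its reads, shares 20 bases with RFC4 on the opposite strand.

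EIF4A3, the exon junction helicase (chr17:80134369-80147151), was called in ZMAT3 cells only, at 220 to 287 normalised CPM (median 257), against 226 to 366 (median 311) in NT. The groups overlapped, and the log2 difference was −0.28 (adjusted p = 0.0062, edgeR). The call was lost without replicate 1 (adjusted p = 0.104), without replicate 3 (adjusted p = 0.125) and over 0 to 4 h (adjusted p = 0.0551).

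EIF4G1, the main scaffold (chr3:184314495-184335358), was called lower in 5 arms. ZMAT5 libraries were at 195 to 353 normalised CPM (median 258), against 402 to 666 (median 536) in NT. MAZ (226 to 376, median 306) and PHF7 (172 to 363, median 310) libraries also lay wholly below NT. ZNF706 libraries (86.2 to 415, median 329) were below every NT library in 11 of 12 and ZMAT3 libraries (247 to 441, median 361) in 9 of 12. By arm, the log2 difference was −0.97 in ZMAT5 (adjusted p = 4.14e-11, edgeR), −0.79 in ZNF706 (3.84e-06), −0.80 in MAZ (6.46e-10), −0.54 in ZMAT3 (4.67e-08) and −0.80 in PHF7 (3.14e-07). Without the shallow library the PHF7 difference was −0.76 (adjusted p = 4.78e-10). In BRCA1 cells EIF4G1 was at 626, 603 and 642 normalised CPM at 0 h and at 65.7, 267 and 204 at 4 h, against 537, 600 and 666 at 0 h and 476, 405 and 402 at 4 h in NT. At 2 h it was at 429, 251 and 405 in BRCA1 cells, against 572, 498 and 615 in NT, and at 8 h at 431, 426 and 402 in BRCA1 cells, against 535, 516 and 549.5 in NT. The 8 h values in BRCA1 cells lay above those at 4 h. Its BRCA1 difference over all times was not called (log2 −0.54, adjusted p = 0.21), and no factor showed an arm difference that depended on chase time (lowest adjusted p = 0.635 over the 8 arms, edgeR interaction test). Of the 80 pairs, 6 had an unadjusted p under 0.05 in that test, 2 each in BRCA1, MAZ and ZMAT3 cells.

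Summed over its stretches, EIF4G1 was not called in CNOT4 cells (log2 −0.24, adjusted p = 0.029, under the fold of 1.2) or in the libraries labelled ZFP36L1 (0.11, adjusted p = 0.24). Its reads lay elsewhere on the gene, however. The last exon (chr3:184334728-184335358, the end of the coding part and the 3′ UTR) held 39.2% of EIF4G1 reads in CNOT4 libraries (24.6 to 61.0%) and 31.1% in the libraries labelled ZFP36L1 (22.2 to 40.2%), against 95.2% in NT (88.0 to 99.9%), and between 92.6% and 96.4% on average in the other 6 arms. In both arms no library overlapped NT. The missing share sat on inner exons. The most read of these are coding in the canonical transcript and lie in an untranslated region of 3 other annotated transcripts. The stretch chr3:184324879-184325114 held 32.3% and the stretch chr3:184324202-184324347 held 19.3% in CNOT4 libraries, and 38.5% and 18.1% in the libraries labelled ZFP36L1, against 2.48% and 0.81% in NT.

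Taken on its own, the last exon of EIF4G1 was at 115 to 244 normalised CPM (median 166) in CNOT4 libraries and 137 to 235 (median 169) in the libraries labelled ZFP36L1, against 356 to 637 (median 508) in NT. The log2 differences were −1.55 ± 0.12 (SE, adjusted p = 2.12e-12, edgeR) and −1.53 ± 0.08 (1.61e-18), and the other 5 calls kept their direction at −0.97 to −0.57. The inner exons together were at 141 to 383 in CNOT4 libraries and 289 to 526 in the libraries labelled ZFP36L1, against 0.512 to 48.7 in NT, or log2 differences of 3.47 and 3.99. The T>C rate is the number of T-to-C conversions, which mark 4SU, over the T positions covered. At 0 h this rate of the inner exons was 0.843 to 1.23% in CNOT4 libraries and 1.23 to 1.47% in the libraries labelled ZFP36L1, against 0.027 to 0.181% in NT (3 libraries each), the NT values from 14 conversions over 15492 T positions. At 8 h the arms overlapped, at 0.523 to 0.637% in CNOT4 libraries and 0.460 to 0.613% in the libraries labelled ZFP36L1, against 0.202 to 1.06% in NT. They also overlapped at 2 h, where NT ran between 0 and 1.28%, and did not at 4 h, where NT reached 0.361% and the lowest library of the other 2 arms had 0.883%. The most-read inner exons, chr3:184323781-184323977, chr3:184324202-184324347 and chr3:184324879-184325114, did not end in either poly(A) signal. The ends of the other inner exons were not looked at. The most A-rich 30 bases of the 2 most-read inner exons are given here because the library kit primes from oligo(dT), with A in capitals.
EIF4G1 inner exon, chr3:184324309-184324338: tttgAgAAgAAgcAAAAAgAgAtggAtgAA
EIF4G1 inner exon, chr3:184324975-184325004: tcAAActgAAgAtgttAAcAgAggcAAtAA
The windows hold 15 and 14 A. The most A-rich 30 bases of the EIF4G1 last exon hold 14 A. Those of the most-read stretches hold 15 A in EIF4A2 and EIF4G2, 20 in EIF4A1 and 26 in EIF4E. The part such windows play in the reads was not tested. The single-stretch fit was added after the shares had been seen.

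**Figure D3:**
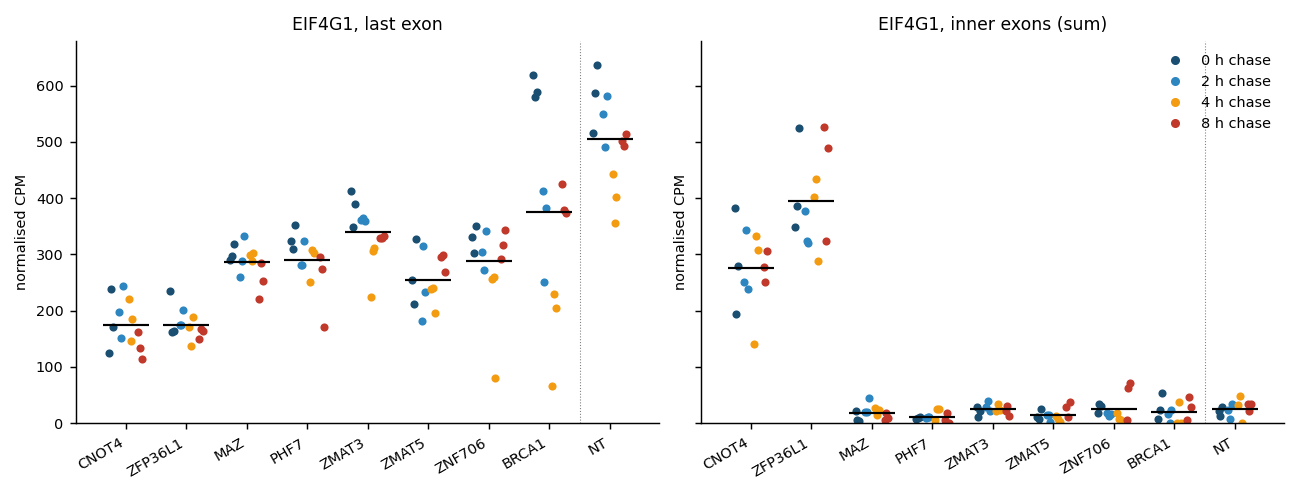
Normalised CPM (y axis) of the EIF4G1 last exon and of its inner exons in each library, by arm (x axis, NT at the right), with bars at the mean of 12. CNOT4 and the libraries labelled ZFP36L1 have fewer last-exon reads (means 174 and 174 against 506 in NT) and more inner-exon reads (275 and 396 against 24.9).

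The genes whose level was most like that of EIF4G1 over the 36 groups, with its stretches summed, were UBE2S (r = 0.841), MRPL41 (0.825) and CCDC9 (0.808). Among the factors themselves, the correlation over these groups ran between −0.375 (EIF4A3 with EIF4B) and 0.822 (EIF4E2 with EIF4H), and was 0.012 between EIF4A1 and EIF4G1, which are both called lower in MAZ, PHF7, ZMAT3, ZMAT5 and ZNF706 cells. All points share NT and the libraries' scaling.

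EIF4G2, the EIF4E-independent scaffold (chr11:10797050-10808940), had its lowest levels in ZNF706 cells. Its libraries were at 307 to 604 normalised CPM (median 529), against 1300 to 1690 (median 1562) in NT, or 506 ± 75.6 and 1537 ± 118 (SD, n = 12 each), and the groups did not overlap. The log2 difference was −1.61 (adjusted p = 2.78e-19, edgeR). In PHF7 cells EIF4G2 was at 45.1 to 1005 (median 915), again wholly below NT, and the log2 difference of −0.85 (adjusted p = 0.000579) was −0.75 (adjusted p = 5.23e-13) without the shallow library. It was not called there without replicate 1 or 2 (adjusted p = 0.0689 and 0.0639), which both keep the shallow library. ZMAT3 (952 to 1352, median 1140) and CNOT4 (902 to 1374, median 1097) libraries were below every NT library in 11 of 12 each, with log2 differences of −0.43 (4.89e-07) and −0.51 (4.31e-07).

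EIF4G3, the second EIF4E-binding scaffold (chr1:20806292-21177285), was the factor with the fewest reads and went up where others went down. In the libraries labelled ZFP36L1 it was at 75.0 to 159 normalised CPM (median 113) and in CNOT4 libraries at 65.0 to 176 (median 102), against 38.2 to 105 (median 73.0) in NT. Of the 12 libraries, 7 and 6 were above every NT library, and the fitted differences were 0.67 on the log2 scale (adjusted p = 0.000377, edgeR) and 0.62 (adjusted p = 0.012). The CNOT4 call was lost over 0 to 4 h (0.57, adjusted p = 0.0795) and without replicate 1 or 3.

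EIF4E, the cap-binding factor (chr4:98879276-98929133), was called lower in CNOT4 cells, the libraries labelled ZFP36L1 and ZNF706 cells. CNOT4 libraries were at 101 to 144 normalised CPM (median 126) and the libraries labelled ZFP36L1 at 133 to 180 (median 155), against 239 to 425 (median 281) in NT, and neither arm overlapped NT. ZNF706 libraries ran between 163 and 270 (median 235), 7 of the 12 below every NT library. The log2 differences were −1.27 (adjusted p = 6.7e-11, edgeR), −0.95 (4.98e-11) and −0.40 (0.00527), the last lost without replicate 2 (adjusted p = 0.176) and over 0 to 4 h (0.077). The counted stretch, chr4:98871685-98881142, runs past the annotated end of the gene, and many EIF4E reads map to more than 1 place: the median library had 20.7% of such reads in CNOT4 and 23.8% in the libraries labelled ZFP36L1, against 52.5% in NT. With reads mapped once, the log2 differences were −0.54 (adjusted p = 0.00372) in CNOT4 and −0.25 (adjusted p = 0.0642) in the libraries labelled ZFP36L1, where the call was lost.

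EIF4E2, the 4EHP cap binder (chr2:232550659-232583644), was called higher in MAZ cells, at 116 to 149 normalised CPM (median 127), against 65.0 to 159 (median 101) in NT. All MAZ libraries lay inside the NT range, and the log2 difference of 0.35 (adjusted p = 0.0326, edgeR) was lost without any 1 of the replicates (adjusted p = 0.0845 to 0.203). The gene is read at both of the ends printed above, near (chr2:232569016-232569210, 69.1% of its reads over all libraries) and far (chr2:232580905-232583644, 30.8%). The near end is 3′ UTR of the canonical transcript, and the far end belongs to other annotated transcripts. Fitted apart, the near end was called higher in MAZ (log2 0.67, adjusted p = 0.000854), CNOT4 (0.57, 0.0132), ZNF706 (0.49, 0.0374) and ZMAT3 cells (0.48, 0.0168), and the far end lower in the libraries labelled ZFP36L1 (−0.57, 0.0179). No difference between the ends' log2 values was tested.

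The ends also differed in how their label ran off. At 0 h the far end had the lower rate in 13 of 27 libraries that covered both ends, and the medians were 1.93% (far) and 2.19% (near). At 8 h the far end had the lower rate in 26 of 26 libraries, with medians of 0.174% and 1.32%. In NT the far end held 3 conversions over 34057 T positions at 8 h, against 665 over 45703 at 0 h. The share of the 0 h rate kept at 8 h was 0.605% to 20.4% (median 10.0%) at the far end and 36.5% to 80.2% (median 60.5%) at the near end over the 9 arms. The far end was below the near end within each arm. No test was run on this pattern, which was noted in the data. The far end had few reads, between 145 and 3056 at the far end per arm and chase time.

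**Figure D4:**
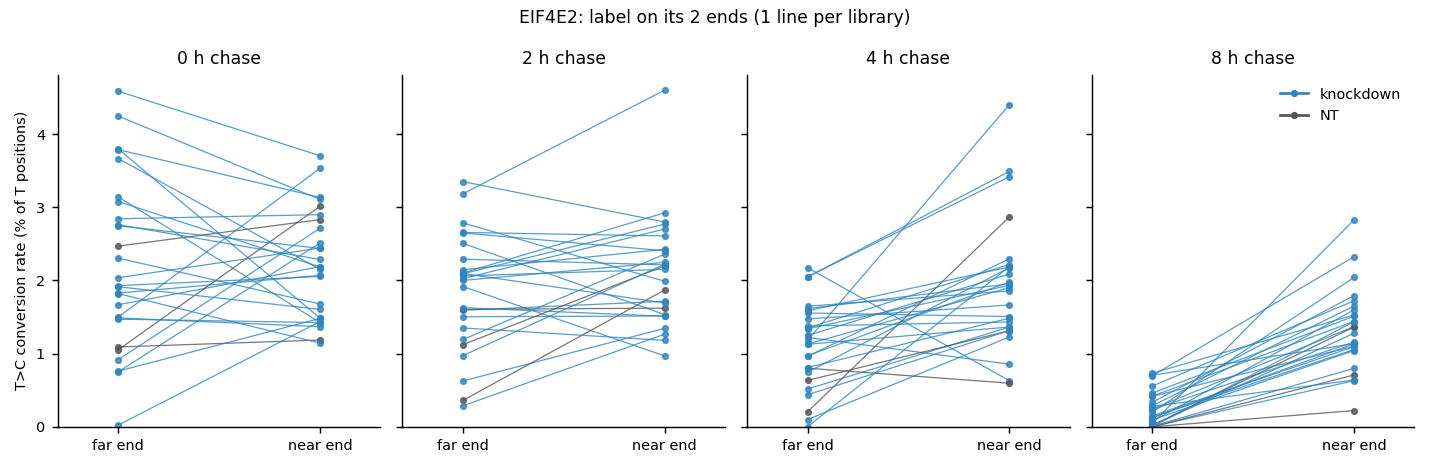
T>C rate in percent (y axis) of the EIF4E2 far end and near end at each of the 4 chase times, 1 line per library joining its own ends. At 8 h all 26 lines run down towards the far end, while at 0 h 13 of 27 do.

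EIF4B and EIF4H, which stimulate the eIF4A helicases, were lower in CNOT4 cells and in the libraries labelled ZFP36L1 and split elsewhere. EIF4B (chr12:53006282-53042215) was at 185 to 354 normalised CPM (median 270) in CNOT4 libraries, wholly below NT, and at 547 to 695 (median 627) in ZMAT5 libraries, 8 of the 12 above NT, against 370 to 605 (median 485) in NT. The log2 differences were −0.84 (adjusted p = 7.1e-08, edgeR) and 0.37 (adjusted p = 0.000461), and −0.27 (adjusted p = 0.004) in the libraries labelled ZFP36L1, where the levels overlapped NT at 335 to 451. The last value did not pass the fold of 1.2 with DESeq2 or with the replicate block, and was lost without replicate 2 (adjusted p = 0.133). The ZMAT5 call was lost without replicate 3 (adjusted p = 0.0665).

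EIF4H (chr7:74174231-74197122) was at 165 to 316 normalised CPM (median 240) in CNOT4 libraries, 225 to 382 (median 313) in the libraries labelled ZFP36L1, 234 to 335 (median 291) in ZMAT5 libraries and 455 to 600 (median 539) in ZMAT3 libraries, against 328 to 509 (median 439) in NT. CNOT4 lay wholly below NT, and in ZMAT3 cells 9 of the 12 libraries were above it. The log2 differences were −0.88 (adjusted p = 3.5e-08, edgeR), −0.46 (8.49e-05), −0.56 (2.85e-06) and 0.32 (0.00137). EIF4H was also called lower in PHF7 cells once the shallow library, which holds 0 of its reads, was left out (−0.34, adjusted p = 0.00181, against −0.42 and 0.113 with it). For both cofactors the share of reads mapped to more than 1 place was higher in these arms. The median library had 64.9% of such EIF4B reads in CNOT4 and 71.2% in the libraries labelled ZFP36L1, against 34.7% in NT, and of EIF4H reads 81.9% and 81.9%, against 56.7%. With reads mapped once, the differences were larger, −1.79 and −1.45 for EIF4B and −2.12 and −1.63 for EIF4H.

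The label at 0 h, after 24 h of 4SU, was called different from NT for many genes in MAZ and ZMAT3 cells and fewer in the other arms. In MAZ cells 8 of the 10 factors had a T>C rate called higher than in NT, all except EIF4E2 and EIF4G3, where 32.8% of 8217 genes were called higher. In ZMAT3 cells 6 factors were called higher (26.5% of 8312 genes), and in ZMAT5 cells EIF4G2 alone lower (2.76% of 8254 genes). The median log2 difference of the 10 factors was nevertheless below that of all genes tested in MAZ (0.69 against 0.87) and ZMAT3 cells (0.70 against 0.91). In ZMAT5 cells it was −0.46, against −0.41. EIF4A1 was labelled at 3.46 ± 0.16% in MAZ and 3.32 ± 0.66% in ZMAT3, against 2.02 ± 0.14% in NT (SD, n = 3 each), and EIF4G2 at 1.16 to 1.23% in ZMAT5, against 1.56 to 1.91% in NT. Over all genes pooled, the rate was 2.95% in MAZ, 3.03% in ZMAT3 and 1.27% in ZMAT5, against 1.75% in NT. Measured against the pooled rate of each library in place of the covered T positions alone, 0 factors were called by edgeR in any arm, and 6 of the 80 pairs had an unadjusted p under 0.05.

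In NT cells the label of the factors ran off at different speeds. First-order half-lives, fitted to the mean of the replicates, were 12.3 h for EIF4G1, 10.8 h for EIF4G2, 10.5 h for EIF4H, 5.69 h for EIF4B, 5.36 h for EIF4A1, 4.37 h for EIF4A3, 4.19 h for EIF4E, 3.85 h for EIF4E2, 2.82 h for EIF4A2 and 1.95 h for EIF4G3. The median over 5544 genes was 3.27 h. Half-lives beyond the 8 h chase are extrapolated. For EIF4G1 only replicates 1 and 3 had a fit of their own, at 10.5 and 5.71 h, and for EIF4B these gave 3.99 and 4.53 h, all below the value from the mean. The replicates of some neighbours in this order overlapped. EIF4H replicates with a fit gave 7.94 and 12.3 h and EIF4G2 replicates 7.83, 14.5 and 12.5 h, while EIF4E (3.25, 6.23 and 3.79 h) spanned EIF4A3 (4.18, 4.45 and 4.56 h). The helicase paralogues did not overlap, with EIF4A1 at 4.92, 4.99 and 6.46 h and EIF4A2 at 2.18, 3.72 and 2.74 h. EIF4G3 replicates gave 2.61, 1.27 and 2.24 h and overlapped EIF4A2. In the other arms with a fit, EIF4G3 lay between 3.85 h (CNOT4) and 6.86 h (ZNF706). The median over all genes in these arms ran between 3.40 h (CNOT4) and 5.06 h (ZMAT3). In BRCA1 cells the EIF4G3 fit did not pass, and 2 replicates gave 0.851 and 1.44 h. EIF4E2 lay between 6.16 h (ZNF706) and 8.77 h (ZMAT5) in the other arms with a fit, and its half-life joins the 2 ends described above. Neither EIF4G3 nor EIF4E2 was called different from NT in label loss in any arm. Levels of NT cells at 8 h of chase did not differ from 0 h for any of the 10 factors by edgeR (all adjusted p = 1), and for 0 of 12126 genes, 618 of which had an unadjusted p under 0.05.

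EIF4G2 lost its label faster in ZNF706 cells than in NT cells. At 0 h its T>C rate was 3.40, 2.57 and 2.79% in ZNF706 cells, against 1.91, 1.56 and 1.64% in NT cells. At 8 h it was 0.53, 0.71 and 0.56% in ZNF706 cells, against 1.00, 1.03 and 1.03% in NT cells. The replicates thus did not overlap at either time, and ZNF706 cells were above NT at 0 h and below it at 8 h. Pooled over all genes, the rate was above NT at both times, at 2.29% and 0.82% in ZNF706 cells, against 1.75% and 0.61% in NT cells. The rate of loss was 0.210 per h in ZNF706 cells and 0.063 per h in NT cells (adjusted p = 0.0023, edgeR), and the half-life was 3.90 h (replicates 3.61, 5.33 and 3.15 h), against 10.8 h in NT. EIF4G2 was the one gene of 7323 called in this arm, or 0.0137%. The call was lost with limma, over 0 to 4 h, and without replicate 1 or replicate 2.

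EIF4A1 lost its label faster in the libraries labelled ZFP36L1, at 0.227 per h, against 0.147 per h in NT (adjusted p = 0.049, edgeR). Its T>C rate was 2.35, 2.80 and 2.39% at 0 h and 0.40, 0.42 and 0.44% at 8 h in the libraries labelled ZFP36L1, against 1.93, 2.18 and 1.94% at 0 h and 0.55, 0.51 and 0.83% at 8 h in NT. The half-life was 3.33 h (replicates 3.00 to 3.63 h), against 5.36 h in NT. It was 1 of 9 genes of 7358 called (0.122%), and the call was lost under every alternative tried except a lower CPM minimum. In the other 6 arms edgeR called 0 factors in label loss, with 5 of the pairs at an unadjusted p under 0.05 and 0 called by limma.

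**Figure D5:**
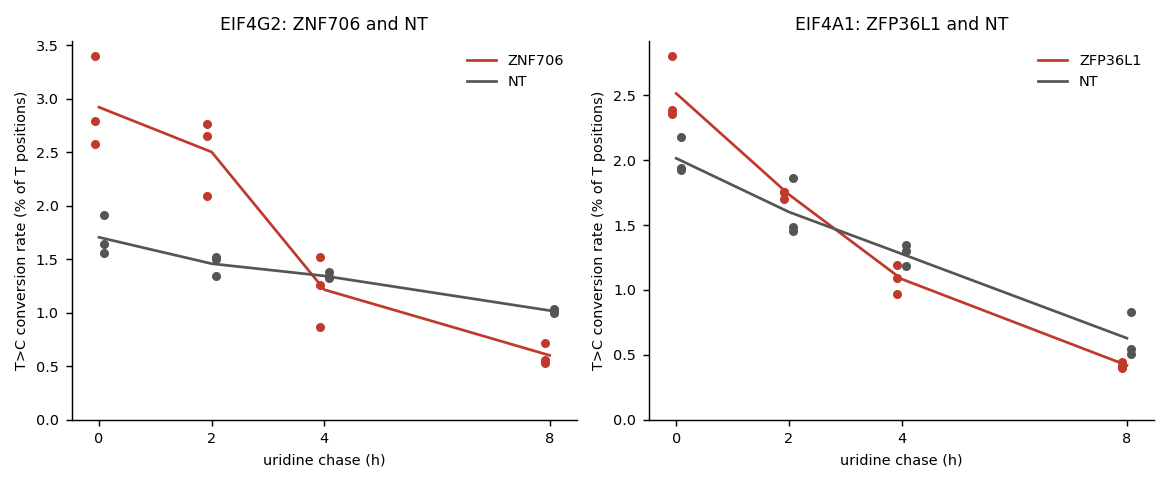
T>C rate in percent (y axis) against chase time in h (x axis) for EIF4G2 in ZNF706 and NT cells and for EIF4A1 in the libraries labelled ZFP36L1 and in NT cells. Points are the 3 libraries at each time and lines join their means; EIF4G2 in ZNF706 cells starts above NT and ends below it.

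Other initiation genes were counted from lists chosen with earlier results known. Their counts are to be read against the shares of all genes given above, 13.2% higher and 13.2% lower in CNOT4 and 21.7% higher and 18.2% lower in the libraries labelled ZFP36L1, which several of them lie near. The shares higher and lower were 5.23% and 3.56% in MAZ, 3.96% and 4.5% in PHF7 and 5.54% and 4.76% in ZMAT3 cells. They were 5.41% and 4.24% in ZMAT5 and 2.91% and 2.32% in ZNF706 cells. Counts of 1 in 21 or 1 in 17 genes in these arms lie near such shares too. The eIF4E-binding repressor EIF4EBP1 was called higher in CNOT4 (log2 0.94), the libraries labelled ZFP36L1 (0.90) and MAZ cells (0.72), and EIF4EBP2 lower in CNOT4 (−1.56) and the libraries labelled ZFP36L1 (−0.32). Of 21 regulators of EIF4E and other eIF4-named genes tested, 4 were called higher and 3 lower in CNOT4, 4 and 6 in the libraries labelled ZFP36L1, 1 and 1 in MAZ, 2 and 2 in PHF7, 2 and 1 in ZMAT3, 1 and 1 in ZMAT5, and 2 and 0 in ZNF706 cells. LARP1, which binds mRNAs with a terminal oligopyrimidine start, was the largest fall of this list in PHF7 (−0.83), ZMAT5 (−0.46), ZMAT3 (−0.39) and MAZ cells (−0.33). Of 17 genes of eIF1, eIF2, eIF2B, eIF5 and eIF6, 2 were higher and 6 lower in CNOT4, 6 and 6 in the libraries labelled ZFP36L1, and none lower in the other arms, with 3 higher in MAZ, 1 in PHF7, 3 in ZMAT3, 1 in ZMAT5 and 4 in ZNF706 cells. Among them EIF1, which guides start codon choice, was higher by 0.47 in ZNF706, 0.31 in MAZ and 0.26 in PHF7 cells.

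The eIF3 scaffold that EIF4G1 binds on the small subunit had 4 subunits higher and 4 lower of 12 in CNOT4 cells and 7 and 5 of 13 in the libraries labelled ZFP36L1. In the other arms at most 2 of its subunits were called in 1 direction, among them EIF3D, lower in PHF7 (−0.69), ZMAT5 (−0.46) and ZMAT3 cells (−0.34). Of 7 exon junction genes, which include the EIF4A3 partner MAGOH, 1 was higher and 4 lower in CNOT4 and 2 and 5 in the libraries labelled ZFP36L1, and MAGOH was lower in PHF7 (−0.87) and ZMAT3 cells (−0.77). Of 10 genes of initiation kinases and their complexes, 2 were higher and 3 lower in CNOT4 and in the libraries labelled ZFP36L1, and none was higher in the other arms. AKT1S1, an inhibitory subunit of mTORC1, was lower in 7 arms, with log2 differences of −2.90 in CNOT4, −2.35 in the libraries labelled ZFP36L1, and between −0.87 and −0.56 in MAZ, PHF7, ZMAT3, ZMAT5 and ZNF706 cells. In BRCA1 cells 0 of 67 genes tested from the 5 lists were called by edgeR or DESeq2, with 8 and 9 at an unadjusted p under 0.05.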

How the data were processed

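Total RNA of 4SU-labelled HEK293T cells was alkylated, which makes labelled U read as C, and QuantSeq 3′ libraries were sequenced. The authors ran SlamDunk on 3′ UTR intervals of hg38, with reads that map to several places kept, and deposited per interval the read counts, the T>C read counts, the multimapped counts and the T>C conversion counts with the T positions covered. They also deposited CPM and conversion rates as a fraction, which were used to check the sums. Intervals (69079) were summed per Ensembl gene, and 19501 of 19761 genes took a symbol from GENCODE v44, the source of the gene coordinates.

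The 10 genes and all lists and tests were chosen with earlier results of these data known. All 10 genes are named, with the 3 genes most like EIF4A1, EIF4A2 and EIF4G1, genes that share counted bases, and for each list and arm at most the called genes of largest rise and fall. EIF4EBP1 and EIF4EBP2, and EIF3D, EIF1 and AKT1S1 in all arms where called were named after their values were seen.

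Levels were fitted in edgeR 4.0.16 (R 4.3.3; quasi-likelihood, TMM, filterByExpr, 1 fit per arm with 19 residual degrees of freedom) with Benjamini-Hochberg adjustment over all genes tested. Label loss was the arm by chase hours term on conversions, with log covered T positions as offset (20 degrees of freedom). It was fitted over genes above 5 deposited CPM in at least 2 replicates at each time. Label at 0 h used the same minimum at 0 h and 3 against 3 libraries (4 degrees of freedom). Half-lives came from first-order curves with an R2 over 0.6. Alternatives used DESeq2 1.42.0, limma 3.58.1, library totals, no filter, other chase times, reads mapped once, T>C reads, a replicate block, single intervals and each replicate left out. The scripts were tested on simulated counts. Same-numbered replicates of an arm and NT did not deviate together (correlations between −0.033 and 0.023 over all arms), so numbers were not taken to pair samples. The depth of 8206060 to 13359455 reads per NT library limits the T>C rate of the thinly read EIF4G3 and EIF4E2 most. The authors describe the replicates as biological, and the labels give replicate numbers alone.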

Additional observations from a re-analysis of the deposited data

How the results depend on the processing

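Levels were the most stable results. Of the 33 called level differences, 32 kept their call and direction with DESeq2, 32 with library totals, 32 with no filter on low counts, 32 with reads mapped once, 33 with the most-read stretch alone and 28 over 0 to 4 h, while 20 did at 0 h alone, where 3 libraries face 3. Numbers of factors called in level at 0 h alone were 3 in the libraries labelled ZFP36L1 (6 over all times), 1 in ZMAT3 (5), 2 in ZMAT5 (4) and 3 in ZNF706 (5), and 3 in ZNF706 over 0 to 4 h. With no filter 1 factor was called in BRCA1 cells. Leaving out each replicate gave 6 to 7 factors in CNOT4, 2 to 2 in MAZ, 2 to 5 in PHF7, 5 to 6 in the libraries labelled ZFP36L1, 4 to 5 in ZMAT3, 3 to 5 in ZMAT5, 3 to 5 in ZNF706 and 0 in BRCA1 cells. Label loss was less stable: the count of 1 factor in the libraries labelled ZFP36L1 was 0 over 0 to 4 h, with T>C reads, with limma and with the replicate block, and that of 1 in ZNF706 was 0 over 0 to 4 h and with limma, with 0 to 0 and 0 to 1 when a replicate was left out. Label at 0 h, called for 8 factors in MAZ, 6 in ZMAT3 and 1 in ZMAT5, changed most. With T>C reads the counts were 3, 0 and 0, and 2 in CNOT4, which had 0. With limma they were 5, 0 and 0, and against the arm-wide shift 0, 0 and 0. With the replicate block the ZMAT5 count was 0, and without single replicates the counts were 0 to 7, 0 to 7 and 0 to 0. Against the arm-wide shift 8 values turned: EIF4A1 in ZMAT3 (−0.082), EIF4A3 in MAZ (−0.17), EIF4B in MAZ (−0.11), EIF4E in MAZ (−0.090) and ZMAT3 (−0.10), EIF4G2 in MAZ (−0.041) and ZMAT3 (−0.024), and EIF4H in ZMAT3 (−0.047); this shift is the pooled rate of each library over all genes. The replicate block gave 32 level calls over all arms, and as the numbers do not pair the samples it was not read further. Intervals of EIF4A1 that overlap no other gene could not be fitted, since all 7 are shared. Of 403 half-lives under the alternatives, 125 moved by more than the spread of the replicates, among them EIF4G1 in NT, at 7.67 h without replicate 2 against 12.3 h, EIF4G2 in NT, at 15.0 h with T>C reads against 10.8 h, and EIF4B in NT, at 4.24 to 7.06 h when a replicate was left out.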
